A study of Mus musculus with 48 samples.

Results

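The mRNAs described here have been reported as targets of TIA-1, the related protein TIAR or other proteins that bind AU-rich elements, or encode such proteins. They were chosen by name: Tnf, Il1b, Ptgs2, Mmp13, Cycs, Apaf1, Hif1a, Myc, Zfp36 and Elavl1. Every probe set to which the platform annotation gives 1 of these symbols was taken, which gave 17 of the 45037 probe sets tested and covered 9 of the 10 genes. Zfp36 has no probe set listed under its symbol and was not analysed here. Arrays were run on liver and on 3 nervous tissues (spinal cord, cerebellum and midbrain) from Tia1 knockout (KO) and wild-type (WT) mice of C57Bl/6 background at 3 and 6 months of age, by the labels. With 3 mice per genotype and age this gave 16 groups of 3 arrays and 48 arrays in all. The KO allele is a recombination at exon 4 that leaves a shortened Tia1 transcript and no full-length TIA-1 protein, by the methods of the study. The allele is present in all cells of the mouse and is not restricted to a cell type. The methods name C57BL6/J mice of a commercial breeder as the WT controls and homozygous matings for the colony, whereas the design text calls the controls littermates, so that the Tia1 genotype and the mouse colony may not be separable. The sex of the mice is not given in the labels. Each numbered mouse gave all 4 tissues, and the numbers recur at both ages, which were taken as 12 separate mice.

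TIA-1 is an RNA-binding protein that recognizes uridine-rich and AU-rich stretches, mostly in 3′ untranslated regions. It holds back the translation of many mRNAs bound in this way and helps to assemble stress granules, where untranslated mRNAs gather. AU-rich elements also recruit Elavl1 (HuR), which protects mRNAs from decay, and Zfp36 (tristetraprolin), which hastens it. The arrays read the amount of mRNA, so that a change of translation or of protein would not be seen here. In tissue samples, fewer cells of a type and less RNA per cell cannot be told apart.

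The values are log2 expression values made by Robust Multichip Average (RMA). A probe set is a group of short oligonucleotides that reads 1 or more transcripts. Levels are compared between samples for the same probe set and not between probe sets. Within groups the arrays correlated with at least 0.985. The Tia1 probe set at exon 4 (1431708_PM_a_at) was lower in KO mice in all 8 comparisons of tissue and age, by −2.35 to −1.79 in nervous tissue and by −0.76 and −0.39 in liver (log2, adjusted p at most 0.0402). The Tia1 probe sets 1416812_PM_at and 1416813_PM_at were higher in KO mice in all 8. Marker genes matched the tissue labels: the median level of 7 hepatocyte genes was 12.84 to 12.93 in the liver groups against at most 3.81 elsewhere, that of 4 cerebellar neuron genes 12.16 to 12.26 in cerebellum against at most 5.57 elsewhere, and that of 5 Hox genes of the spinal cord 6.96 to 7.23 against at most 2.94. The 4 dopamine neuron genes reached 4.851 to 4.995 in midbrain against at most 3.09. Arrays with transcripts of other tissues were present. Acta1, the actin of skeletal muscle, stood at 9.75 in the liver of KO mouse 122972 and at 7.69 in that of WT mouse 2 at 3 months, and at 2.75 to 3.27 in the other 10 livers. In spinal cord at 3 months, 5 of 9 granulocyte and precursor genes were higher in KO mice, with a median difference of 1.80.

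Promoter sequence was available for the members other than Myc and is shown for 4 of them, to set the 3 members that hold the TATA box letters beside 1 of the members that do not. The 100 bases before 1 transcription start of each gene are given, from RefSeq in the build GRCm38.p6. They read 5′ to 3′ on the strand of the gene, with TATAAA and each CG in capitals. For Hif1a and Il1b this start lies inside the gene as annotated, which spans chr12:73901324-73947554 and chr2:129364569-129371164.
Tnf (chr17:35202008-35202107, minus strand): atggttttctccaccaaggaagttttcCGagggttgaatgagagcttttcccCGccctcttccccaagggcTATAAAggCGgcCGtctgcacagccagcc
Il1b (chr2:129371140-129371239, minus strand): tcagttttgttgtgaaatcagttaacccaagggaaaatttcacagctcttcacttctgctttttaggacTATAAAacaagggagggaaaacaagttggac
Mmp13 (chr9:7272414-7272513, plus strand): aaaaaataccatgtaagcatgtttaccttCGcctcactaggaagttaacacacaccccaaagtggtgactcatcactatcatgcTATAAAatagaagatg
Hif1a (chr12:73907767-73907866, plus strand): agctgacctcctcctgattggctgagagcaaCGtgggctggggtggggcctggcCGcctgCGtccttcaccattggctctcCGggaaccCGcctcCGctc
TATAAA was searched in the 250 bases before the start. It begins 29 bases before the start in Tnf, 31 in Il1b and 16 in Mmp13, on the strand of the gene, and was not found on either strand in Ptgs2, Cycs, Hif1a, Apaf1, Zfp36 or Elavl1. Over all 32851 promoters of the same length, 7.59% hold it on the strand of the gene and 6.26% on the other. The same 250 bases hold 10 CG in Tnf, 2 in Il1b and 1 in Mmp13, against 14 in Hif1a, 23 in Cycs, 31 in Elavl1 and 42 in Apaf1, with a median of 6 over all promoters. The matches are a description of the sequence.

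The first question was whether the members are expressed in these tissues at all. A group mean was called near background when it lay under the 95th percentile of 86 probe sets of olfactory, vomeronasal and bitter taste receptors in the same group, a level of 3.06 to 3.56. Of the 272 pairs of probe set and group, 97 were near background. Probe sets of Tnf, Mmp13, Ptgs2 (1417263_PM_at) and Hif1a (1431981_PM_at) were near background in all 16 groups, and 9 probe sets of Cycs, Hif1a, Myc, Apaf1 and Elavl1 were above it in all 16. A lower level of Tnf or Mmp13 would thus not be detectable on these arrays.

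**Figure D1:**
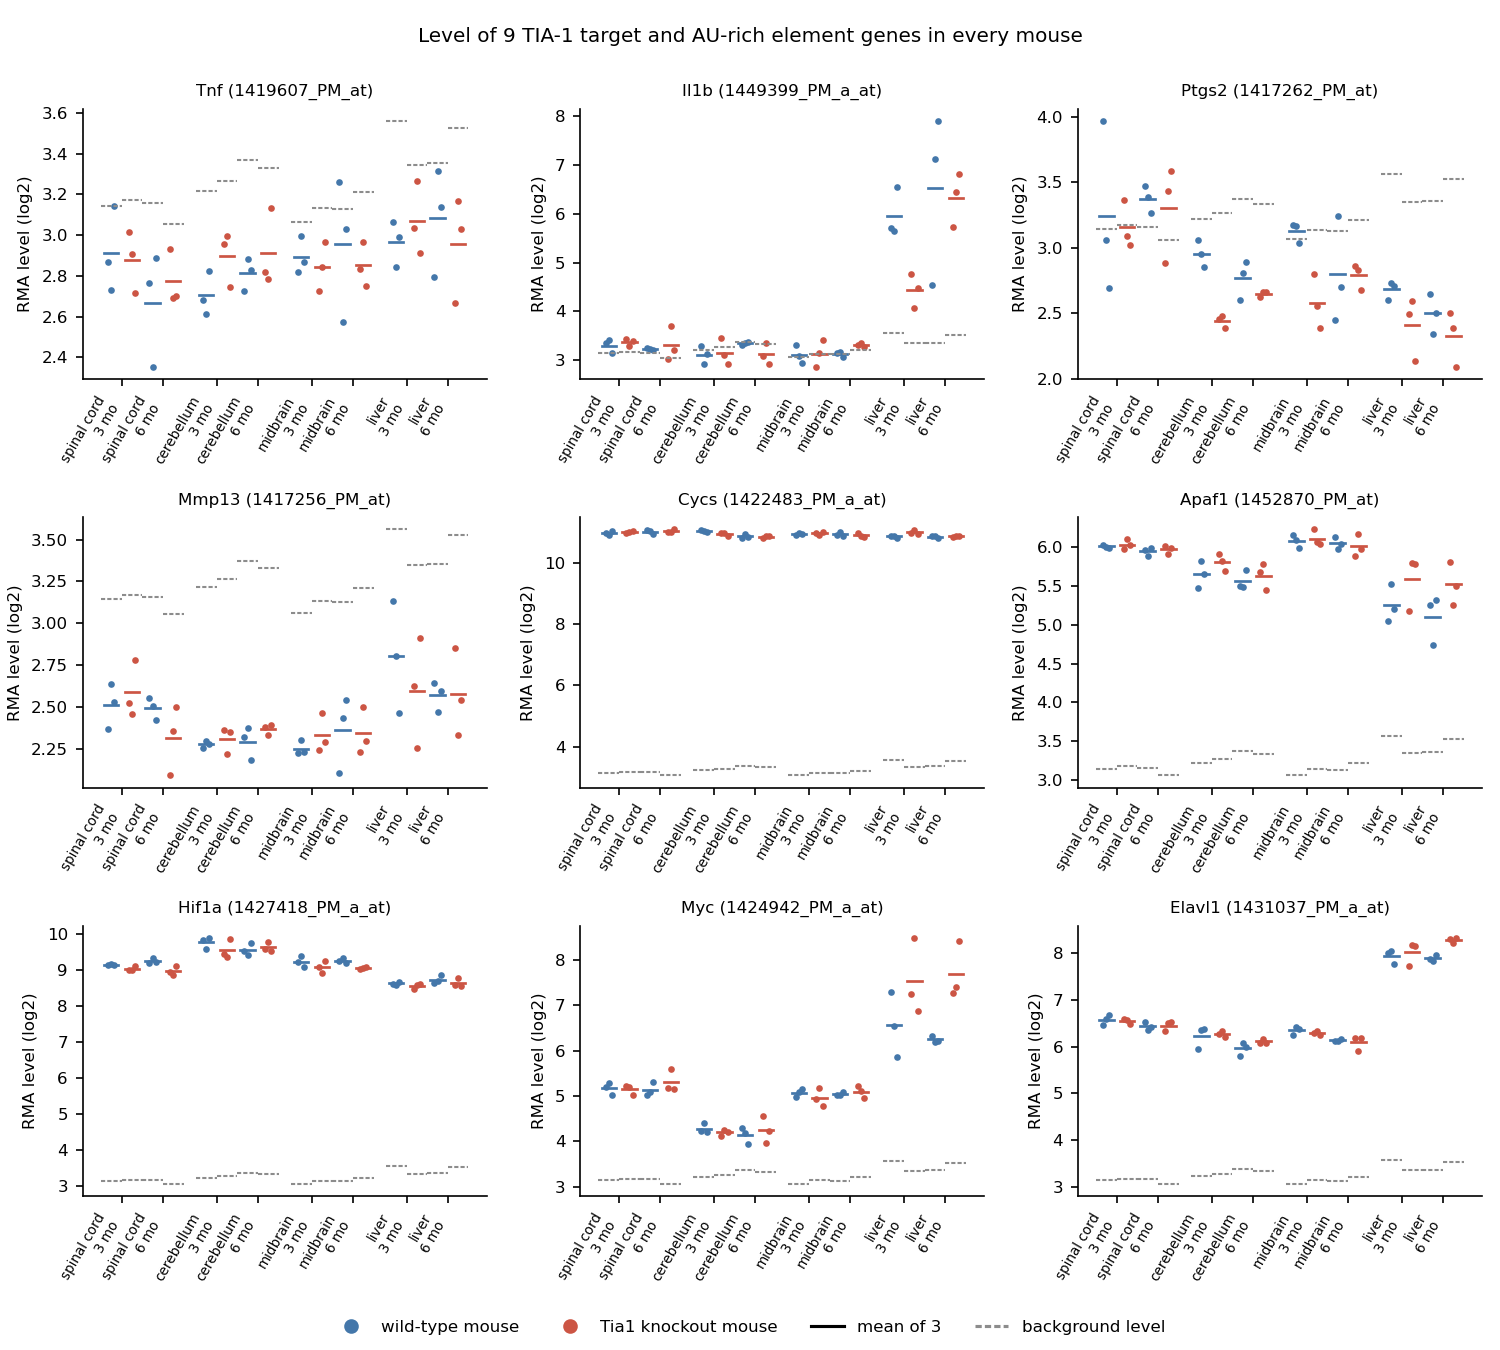
RMA level (log2, y axis) of 1 probe set for each of the 9 measured genes, by tissue and age (x axis), in every WT (blue) and KO (red) mouse, with bars at the mean of 3 and dashes at the background level of each group. Tnf and Mmp13 lie below the dashes in every group mean, Il1b rises above them in liver, and Cycs stays between 10.79 and 11.08 on all arrays.

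The inflammatory members come first. Tnf encodes tumor necrosis factor, whose AU-rich element is the textbook site of TIA-1 action. Its probe set ranged from 2.35 to 3.31 over the 48 arrays. Mmp13, a collagenase, ranged from 2.09 to 3.14. Ptgs2 encodes cyclooxygenase-2, the inducible enzyme of prostaglandin synthesis. Its brighter probe set (1417262_PM_at) rose above background in 4 of 16 groups, 3 of them in spinal cord and 1 in midbrain, with a highest group mean of 3.37. Il1b encodes interleukin-1β. Its group means of 3.11 to 3.37 in nervous tissue were near background in the 4 cerebellum groups and slightly above it in the other 8, whereas its level lay clearly above it in liver, with group means of 4.44 to 6.52.

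For each of the other 5 genes at least 1 probe set was above background in all 16 groups. Cycs encodes cytochrome c, the electron carrier that activates caspases once it leaves the mitochondrion. Its probe set 1422483_PM_a_at lay between 10.79 and 11.08 on all 48 arrays, with group means that spanned only 10.84 to 11.03. Apaf1, the scaffold of the apoptosome that cytochrome c activates, had group means of 5.11 to 6.12 (1452870_PM_at). Hif1a, the oxygen-regulated transcription factor subunit, had group means of 8.57 to 9.78 (1427418_PM_a_at). Myc, a transcription factor of cell growth, had group means of 4.13 to 7.70.

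Between tissues of the WT mice, taken as the mean of both ages, 54 of 102 comparisons of 17 probe sets in 6 tissue pairs passed an adjusted p of 0.05. On the chip as a whole 30.1% of the probe sets differed between spinal cord and midbrain, 47.1% between cerebellum and midbrain, 52.4% between spinal cord and cerebellum, and 78.4%, 77.9% and 79.2% between liver and spinal cord, cerebellum and midbrain. The members' counts were 2, 6, 6, 13, 14 and 13 of 17 for the same pairs, and only between cerebellum and liver (82.4%) was their share above that of the chip. Differences from liver were the largest. Il1b was lower in spinal cord, cerebellum and midbrain than in liver by −2.98, −3.02 and −3.12 (log2, SE 0.28, adjusted p at most 2.25e-12). In cerebellum, where it was near background, the difference is only a lower bound of the distance. In spinal cord and midbrain its level was only slightly above background, so that these differences may understate the distance as well. Myc was lower than in liver by −1.25 in spinal cord, −1.35 in midbrain and −2.20 in cerebellum (adjusted p at most 2.32e-07), and its order was liver, then spinal cord and midbrain, which differed by 0.09 (adjusted p = 0.795), then cerebellum. Hif1a was highest in cerebellum, by 0.47 over spinal cord and 0.42 over midbrain (adjusted p at most 1.07e-05), and lowest in liver, while spinal cord and midbrain differed by −0.05 (adjusted p = 0.728). Apaf1 (1452870_PM_at) was higher in midbrain than in liver by 0.89 and higher in cerebellum than in liver by 0.43. The Cycs probe sets differed in size of change. The largest difference of 1422483_PM_a_at was 0.14, between spinal cord and liver (adjusted p = 0.00241), and that of 1422484_PM_at was 0.33, between midbrain and liver (adjusted p = 4.74e-06). The probe set 1445484_PM_at was higher than in liver by 1.0003 in midbrain, 0.73 in cerebellum and 0.71 in spinal cord (adjusted p at most 1.04e-09).

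Elavl1 gave opposite pictures by probe set. In WT liver, 1431037_PM_a_at measured 8.01, 8.05 and 7.77 at 3 months and 7.89, 7.84 and 7.97 at 6 months, and in the nervous tissues of the WT mice it measured 5.81 to 6.68. It was thus higher in liver on every WT array, by 1.41 over spinal cord, 1.68 over midbrain and 1.83 over cerebellum. The probe set 1452858_PM_at measured 4.17, 4.71 and 4.10 in WT liver at 3 months and 4.25, 4.53 and 4.31 at 6 months, against 6.94 to 7.47 in WT nervous tissue. It was lower in liver on every WT array, by 2.94, 2.88 and 2.77 than in spinal cord, midbrain and cerebellum. The dimmer 1445521_PM_at was also lower in liver, by 0.88 to 0.93, and 1428653_PM_x_at was near background in 11 of 16 groups. All 12 differences from liver passed the test (adjusted p at most 1.32e-08). Which transcripts of Elavl1 the probe sets read was not examined, and no order of tissues for Elavl1 as a gene is given.

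**Figure D2:**
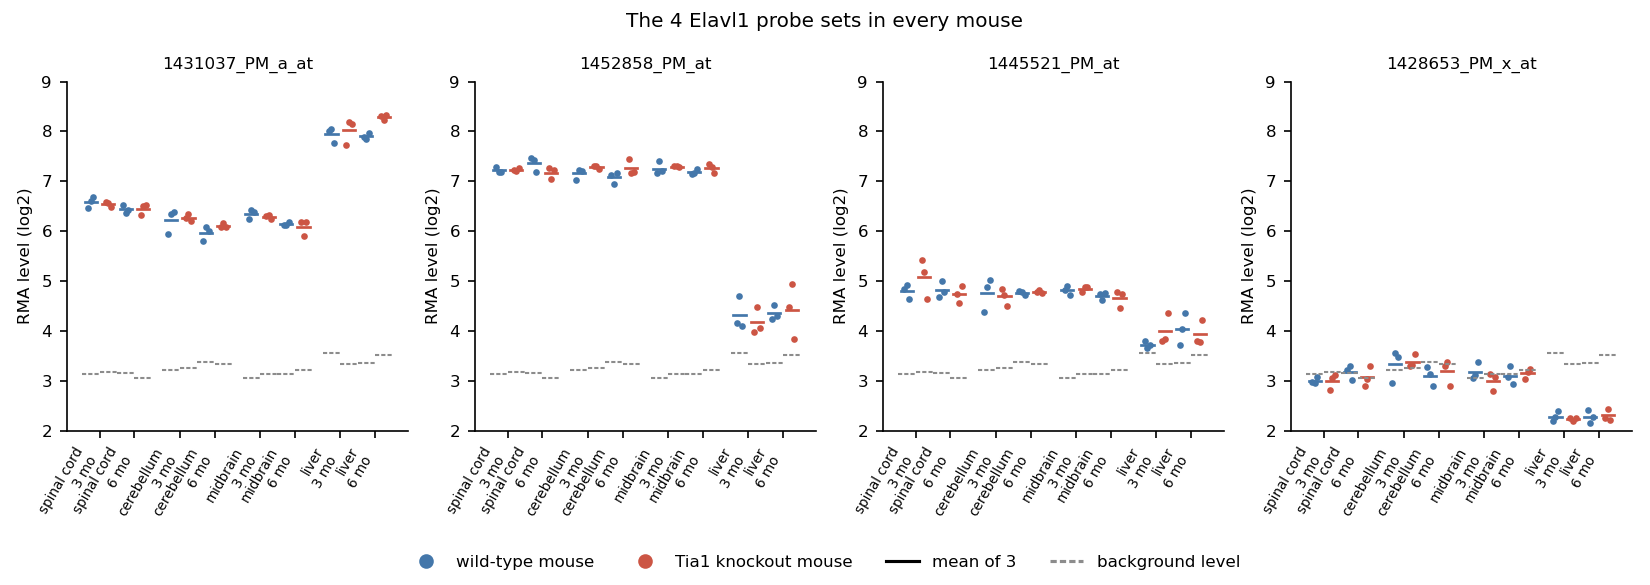
RMA level (log2, y axis) of the 4 Elavl1 probe sets by tissue and age (x axis) in every WT (blue) and KO (red) mouse, with bars at the mean of 3 and dashes at the background level. The first probe set is higher in liver (7.72 to 8.33) than in nervous tissue, whereas 1452858_PM_at is lower in liver (3.84 to 4.95) than in nervous tissue.

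The main question was whether the loss of TIA-1 changes the amount of these mRNAs. In nervous tissue, 0 of the 17 probe sets differed between KO and WT mice in any of the 6 comparisons by limma's moderated test. This test pools the spread over all tissues, and with cerebellum fitted alone Ptgs2 passed at 3 months (adjusted p = 0.0237). On the chip as a whole, 0.311% and 0.162% of the probe sets differed in spinal cord at 3 and 6 months, 0.548% and 0.182% in cerebellum, and 0.242% and 0.142% in midbrain. At such shares fewer than 1 of 17 probe sets would be called. At an unadjusted p under 0.05, 5 of the 102 comparisons passed, beside 3.79% to 7.95% of all probe sets in the 6 comparisons. The median difference of the 17 probe sets lay between −0.05 and 0.07 in the 6 comparisons, beside −0.01 to 0.02 for all probe sets. Muscle transcripts differed between spinal cords. The summed linear level of 6 skeletal muscle genes was 50.2 to 9338.6 in WT and 429.6 to 2325.5 in KO mice at 3 months, and 65.2 to 155.9 in WT and 59.4 to 1042.9 in KO mice at 6 months, against up to 2165.2 in liver. Their part in the spinal cord values was not tested.

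The intervals bound what may have been missed, as far as the spread pooled over all tissues holds for nervous tissue. For Cycs (1422483_PM_a_at), the 6 differences in nervous tissue ranged from −0.09 to 0.03, and no 95% confidence interval of them passed −0.21 or 0.14. For Elavl1 (1431037_PM_a_at) the intervals stayed within −0.27 and 0.36, for Apaf1 (1452870_PM_at) within −0.32 and 0.44, and for Myc within −0.66 and 0.72. For Il1b the intervals reached from −1.02 to 0.98, and its level was near background in the 4 cerebellum groups. Its SD within groups was 0.02 to 0.34 in nervous tissue and 1.77 in WT liver at 6 months. For Myc the SD within groups was 0.72 and 0.84 in WT and KO liver at 3 months. Over both ages it was 0.06 to 0.20 within each genotype and nervous tissue. The width of the intervals of Il1b and Myc thus comes largely from liver.

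**Figure D3:**
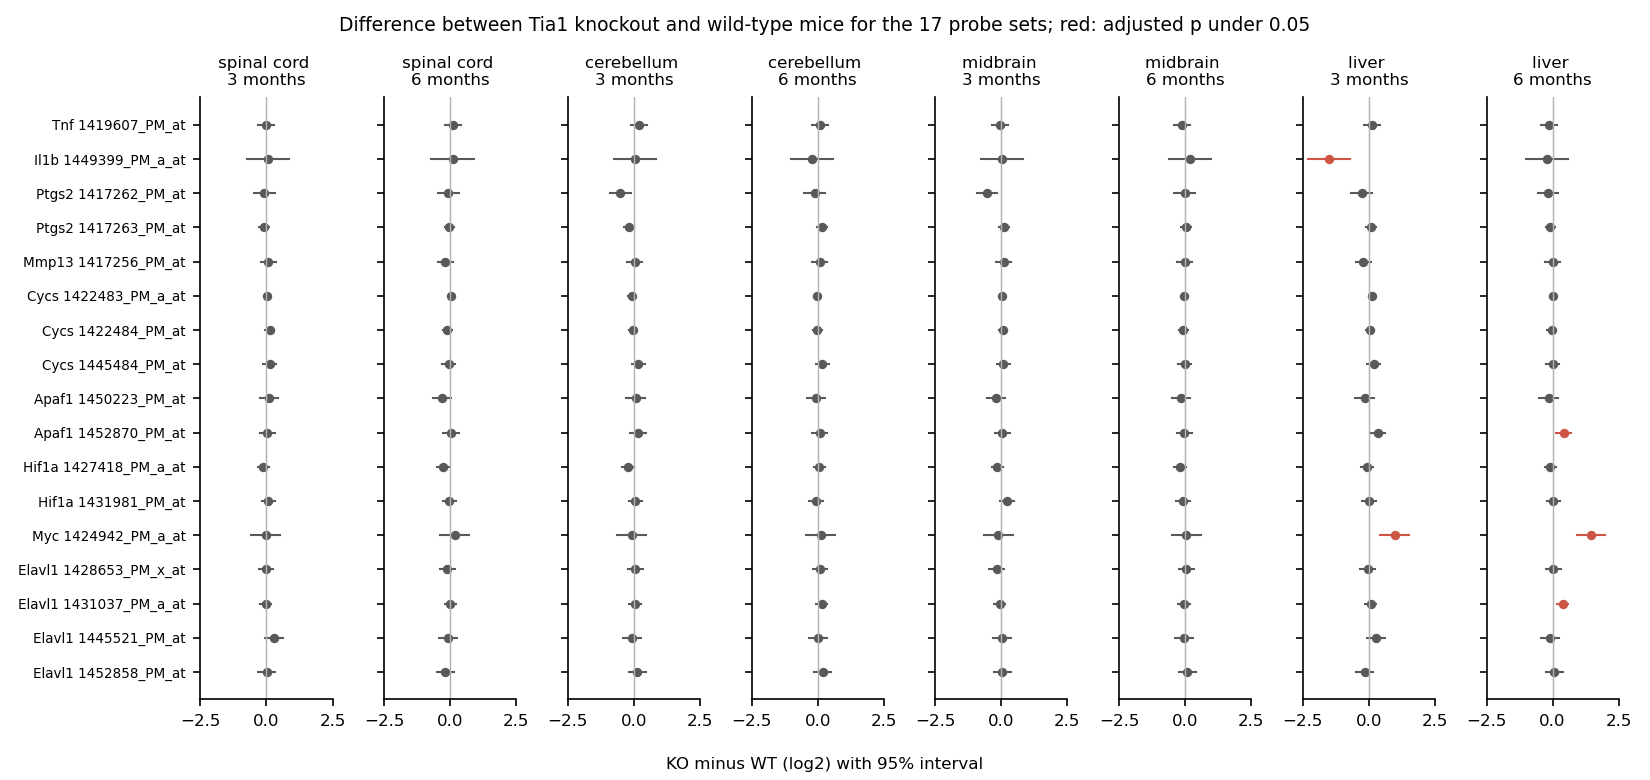
Difference between KO and WT mice (log2, x axis) with its 95% confidence interval for each of the 17 probe sets (y axis), in 8 panels by tissue and age. The 5 red points with an adjusted p under 0.05 are all in liver: Il1b and Myc at 3 months, and Myc, Elavl1 and Apaf1 at 6 months.

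Hif1a was lower in KO mice in 5 of the 6 nervous comparisons without passing the test. In spinal cord at 6 months, the 3 KO mice measured 8.95, 8.87 and 9.14 and the 3 WT mice 9.22, 9.35 and 9.22. The groups did not overlap, and the difference was −0.27 (SE 0.11, unadjusted p = 0.015, adjusted p = 0.9999). In spinal cord at 3 months, the KO mice measured 8.998, 8.997 and 9.116 and the WT mice 9.15, 9.18 and 9.14, and in midbrain at 6 months 9.04, 9.07 and 9.11 against 9.27, 9.34 and 9.19. These groups did not overlap either, with differences of −0.12 and −0.20, while 17.14% of all probe sets had groups that did not overlap in spinal cord at 3 months, 11.53% at 6 months and 14.62% in midbrain at 6 months. In cerebellum the difference was −0.22 at 3 months and 0.07 at 6 months, and the liver values were −0.07 and −0.09. This probe set was thus lower in KO mice in 7 of 8 comparisons, and none of them passed the correction. The comparisons share mice between tissues and are not independent. The other Hif1a probe set (1431981_PM_at), near background in all 16 groups, was lower in KO mice in 3 of the 6 nervous comparisons.

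Ptgs2 (1417262_PM_at) fell short of the test in the same way. At 3 months it measured 2.45, 2.48 and 2.39 in KO cerebellum and 3.06, 2.95 and 2.85 in WT cerebellum. In midbrain it measured 2.80, 2.56 and 2.39 in KO mice and 3.18, 3.16 and 3.04 in WT mice. Neither pair of groups overlapped, with differences of −0.52 (SE 0.20, adjusted p = 0.356) and −0.54 (adjusted p = 0.445), beside 14.35% and 22.35% of all probe sets with groups that did not overlap. With cerebellum fitted alone the first passed (adjusted p = 0.0237). At 6 months the differences were −0.12 and −0.01, and except for WT midbrain at 3 months all these group means were near background.

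In liver, 2 of 17 probe sets differed at 3 months (11.8%) and 3 of 17 at 6 months (17.6%), beside 9.44% and 11.5% of all probe sets. With so many probe sets called in liver, these shares lie near that of the chip. The median difference of the members was 0.04 at 3 months and −0.0012 at 6 months. The spread between mice was larger in liver than elsewhere, with a median SD of 0.218 within groups against 0.115 to 0.133 in the nervous tissues, whereas the test pools the spread over all tissues. When liver was fitted alone, the probe sets called on the chip fell from 4253 to 169 at 3 months and from 5175 to 273 at 6 months, and 0 of the 17 passed at either age. The liver calls below therefore rest on the pooled spread.

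Myc was higher in KO liver at both ages. At 6 months the KO livers measured 7.28, 7.41 and 8.41 and the WT livers 6.32, 6.20 and 6.22, so that all KO values lay above all WT values, while 18.22% of all probe sets had groups that did not overlap in this comparison. The difference was 1.45 (SE 0.27, 2.74-fold, adjusted p = 0.000254), and the call held without any 1 mouse (adjusted p at most 0.0112) but not with liver alone (adjusted p = 0.198). At 3 months the KO livers measured 7.26, 8.49 and 6.88 and the WT livers 7.30, 6.55 and 5.85. These groups overlapped, and the difference was 0.97 (SE 0.27, adjusted p = 0.016). Without KO mouse 122972, which had the highest Myc value and the highest Acta1 value, it was 0.50 (adjusted p = 0.257). Without WT mouse 3 it was 0.62 (adjusted p = 0.201), without WT mouse 2 it was 0.97 (adjusted p = 0.052), and without both livers that held muscle transcripts it was 0.49 (adjusted p = 0.298). The part of the muscle transcripts in the Myc values was not tested.

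In the nervous tissues the Myc differences lay between −0.11 and 0.18 with no call. The KO effect in liver, as the mean of both ages, minus that in the 3 nervous tissues was 1.20 (SE 0.22, 95% confidence interval 0.75 to 1.64, adjusted p = 0.00025). With all mice, this was the only 1 of the 17 probe sets for which the liver effect differed, beside 9.12% of all probe sets. Without WT mouse 1 of 6 months Il1b passed as well (−1.39, adjusted p = 1.20e-05). Elavl1 (1431037_PM_a_at) passed without KO mouse 122970 or WT mouse 1 of 3 months (0.30 and 0.28, adjusted p at most 0.025). Apaf1 (1452870_PM_at) passed without KO mouse 122970 or WT mouse 2 of 3 months, or KO mouse 122972 of 6 months (0.38 to 0.44, adjusted p at most 0.04335). The difference for Myc cannot be fitted within a tissue and so rests on the pooled spread. It held without any 1 mouse, with values of 0.99 to 1.39, and was 0.95 (adjusted p = 0.00136) without the livers that held muscle transcripts.

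Il1b was lower in KO liver at 3 months. The KO livers measured 4.76, 4.07 and 4.49 and the WT livers 5.70, 5.64 and 6.55, with no overlap, as for 15.76% of all probe sets. The difference was −1.52 (SE 0.39, 2.87-fold lower, adjusted p = 0.00965). It was −1.34 without KO mouse 122972 (adjusted p = 0.0704), −1.23 without WT mouse 3 (adjusted p = 0.0936) and not called with liver alone (adjusted p = 0.455). At 6 months the KO livers measured 5.73, 6.44 and 6.81 and the WT livers 4.53, 7.13 and 7.90. Here WT mouse 1 lay below all KO mice and the other two above them, and the difference was −0.20 (adjusted p = 0.809). Without WT mouse 1 it was −1.19 (adjusted p = 0.00248), and without WT mouse 3 it was 0.49 (adjusted p = 0.447). Kupffer cells, the macrophages of the liver, are a source of interleukin-1β. At 3 months 1 of 5 Kupffer cell genes, Timd4, was lower in KO liver, by −1.0016, with a list median of −0.32, and at 6 months 3 of 5 were higher, with a median of 0.55. The summed linear level of these 5 genes was 2083.3 to 2394.2 in KO and 2453.7 to 2965.2 in WT livers at 3 months, and 2425.3 to 3395.8 in KO and 1847.9 to 2236.1 in WT livers at 6 months. None of the 5 was near background in liver. Of 11 microglia and macrophage genes, 0 differed at 3 months and 5 were higher in KO liver at 6 months, beside 9.44% and 11.5% of all probe sets. Their part in the Il1b values was not tested.

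**Figure D4:**
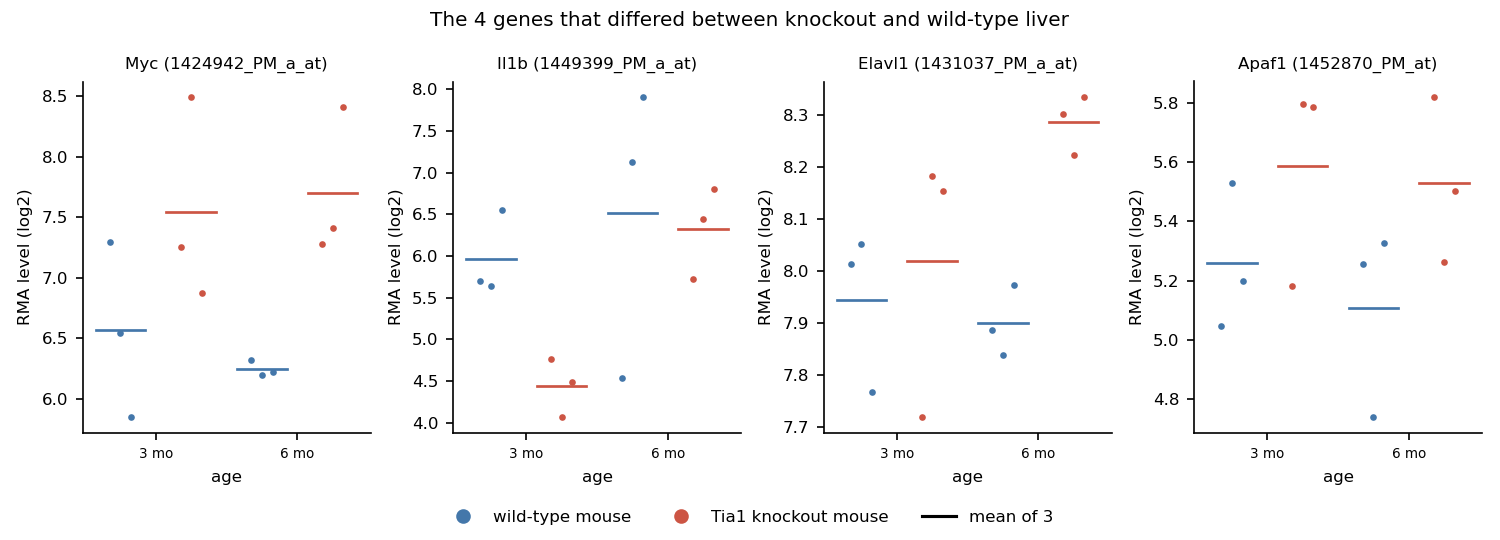
RMA level (log2, y axis, a separate scale in each panel) of Myc, Il1b, Elavl1 and Apaf1 in the liver of every WT (blue) and KO (red) mouse at 3 and 6 months (x axis), with bars at the mean of 3. The groups are apart for Myc and Elavl1 at 6 months and for Il1b at 3 months, and overlap in the other panels and ages.

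Elavl1 and Apaf1 were slightly higher in KO liver at 6 months. Elavl1 (1431037_PM_a_at) measured 8.30, 8.22 and 8.33 in KO and 7.89, 7.84 and 7.97 in WT livers, a difference of 0.39 (SE 0.11, adjusted p = 0.0122). The call was lost without KO mouse 122973 (adjusted p = 0.0553), without WT mouse 2 (adjusted p = 0.0607) and with liver alone (adjusted p = 0.285). The other 3 Elavl1 probe sets gave 0.06, −0.10 and 0.03 in the same comparison, with no call, and at 3 months 1431037_PM_a_at gave 0.07. Apaf1 (1452870_PM_at) measured 5.82, 5.26 and 5.50 in KO and 5.25, 4.74 and 5.33 in WT livers. These groups overlapped, the difference of 0.42 passed narrowly (adjusted p = 0.0473), and it lost the call in 7 of 12 fits without 1 mouse and with liver alone (adjusted p = 0.50). At 3 months it was 0.33 (adjusted p = 0.146), and the second Apaf1 probe set gave −0.16 and −0.15.

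Few members differed between the ages. The mice of 3 and 6 months were taken as separate mice, so that age cannot be told apart from other differences between these sets of mice. From 3 to 6 months, 0 of 17 probe sets differed in any tissue of the WT mice, beside 10.7% of all probe sets in liver, 0.258% in midbrain, 1.13% in cerebellum and 0.242% in spinal cord. In the same order, 1, 2, 2 and 1 had an unadjusted p under 0.05, beside 24.6%, 7.59%, 11.1% and 7.33% of all probe sets. In KO mice 0 differed in the nervous tissues, beside 0.0910%, 0.0844% and 0.00444% in spinal cord, cerebellum and midbrain. In KO liver Il1b was higher at 6 than at 3 months by 1.88 (SE 0.39, adjusted p = 0.00148), the only 1 of 17 beside 10.9% of all probe sets. It held without any 1 mouse and was lost with liver alone (adjusted p = 0.32). The change of the KO effect with age was called for 0 of 17 probe sets in every tissue, beside 7.14% in liver, 0.0444% in midbrain, 0.0577% in cerebellum and 0.0533% in spinal cord. In the same order, 2, 0, 1 and 0 had an unadjusted p under 0.05, beside 21.5%, 4.78%, 4.85% and 3.85% of all probe sets. For Il1b in liver this difference between the ages was 1.33 (SE 0.55, adjusted p = 0.148). Without WT mouse 3 of 6 months it was 2.02 (adjusted p = 0.0128), and without WT mouse 1 of 6 months it was 0.33 (adjusted p = 0.649).

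Genes that work with the members were counted next, with the brightest probe set for each gene. Of 27 AU-rich element binding proteins and mRNA decay factors, 0 differed in each of the 6 nervous comparisons, with 0 to 2 at an unadjusted p under 0.05. In liver 1 was higher and 2 were lower at 3 months, and 5 were higher and 0 lower at 6 months, among them Zfp36l2, a relative of tristetraprolin, by 0.41 (adjusted p = 0.0084), beside the 9.44% and 11.5% of all probe sets. With liver alone 0 of 27 were called at either age. Of 33 other mRNAs with AU-rich elements, 1, 1, 1, 0, 2 and 1 were higher and 0 lower in spinal cord at 3 and 6 months, cerebellum at 3 and 6 months and midbrain at 3 and 6 months. These calls were all of Cdkn1a and Nfkbia. Of all probe sets, 0.142% to 0.548% were called in the 6 nervous comparisons, a share that also stands beside the lists below. The list medians lay between −0.06 and 0.03.

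Cdkn1a encodes the cell cycle inhibitor p21. It was already known as changed in these samples when the list was made, and is no independent evidence. Its difference was 1.31 in spinal cord at 6 months (adjusted p = 0.00996), 1.62 in cerebellum at 3 months, 1.89 and 1.77 in midbrain, and 1.52 and 1.67 in liver, where the call at 3 months was lost with liver alone (adjusted p = 0.0648). In spinal cord at 3 months and cerebellum at 6 months it was 0.87 and 0.99, with adjusted p = 0.25 and 0.148, and the former was called with spinal cord alone (adjusted p = 0.0354). In all 8 comparisons every KO value lay above every WT value, while 11.53% to 22.35% of all probe sets had groups that did not overlap. Nfkbia, the inhibitor of NF-κB, was higher in spinal cord at 3 months by 0.93 (adjusted p = 0.00107) and in midbrain at 3 months by 0.76 (adjusted p = 0.0222), the latter lost with midbrain alone (adjusted p = 0.0509).

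In the pathway of tumor necrosis factor, interleukin-1 and prostaglandins, 22 genes were measured. Pla2g4a, the phospholipase that releases arachidonic acid for cyclooxygenase-2, was lower in KO cerebellum at 3 months by −0.57 (adjusted p = 0.0428) and in KO midbrain at 3 months by −0.71 (adjusted p = 0.00949). Casp1, the protease that activates interleukin-1β, was lower in cerebellum at 3 months by −0.69 (adjusted p = 0.0137). The cerebellum call of Pla2g4a was lost with that tissue alone (adjusted p = 0.0879) and held in 10 of 21 alternative fits. The other 4 nervous comparisons gave 0 calls in this list, except that with spinal cord alone Casp1 was called lower at 3 months (adjusted p = 0.028). In liver Pla2g4a went the other way at 6 months and was higher in KO mice by 0.60 (adjusted p = 0.00355). That call held in 19 of 21 alternative fits and was lost with liver alone (adjusted p = 0.1555). Il1rn, the natural antagonist of the interleukin-1 receptor, was lower in KO liver at 3 months by −0.67 and higher at 6 months by 0.59. With liver alone 0 of the 22 genes were called at either age. In the joint fit 9.44% and 11.5% of all probe sets were called.

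Of 12 genes of intrinsic apoptosis, Bid was the only one called in nervous tissue, and it was lower in KO mice in all 8 comparisons. Bid links death receptors to the release of cytochrome c. At 3 and 6 months it was lower by −1.40 and −1.38 in liver, by −0.81 and −0.76 in midbrain, by −0.74 and −0.76 in cerebellum and by −0.99 and −0.86 in spinal cord (adjusted p at most 9.62e-05). The Bid groups overlapped in none of the 8 comparisons, while 11.53% to 22.35% of all probe sets had groups that did not overlap. In KO cerebellum its group means of 2.86 and 2.87 were below the background level. Each call held in 21 of 21 alternative fits, except in midbrain at 6 months with 20 of 21, and all held with each tissue alone. Like Cdkn1a, it was known as changed before the list was made. Bid lies on chromosome 6, as does Tia1, with 34.46 Mb between them in RefSeq, and Cycs, on the same chromosome 35.84 Mb from Tia1, was called in none of the 8 comparisons. Whether the place of Bid on that chromosome has a part in its values was not tested.

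The partners of Hif1a and Myc differed little in nervous tissue. Of 18 regulators and targets of HIF-1, 0 were called in the 6 comparisons, with 1 to 4 at an unadjusted p under 0.05. In liver 3 were higher and 2 lower at 3 months, where Ldha, a lactate dehydrogenase subunit, was higher by 0.40 (adjusted p = 0.00416), and 2 were higher at 6 months. Of 17 partners and targets of MYC, Mxd4, a factor that shares the partner of MYC, was higher in cerebellum at 3 months by 0.43 (adjusted p = 0.0299), the only call in nervous tissue, and it was lost with cerebellum alone, where 0 of 17 were called. In liver the other family members moved in opposite directions: Mycn was lower by −0.98 and −0.77 and Mycl higher by 0.61 and 0.46 at 3 and 6 months (adjusted p at most 0.0441). In KO liver at 6 months Mycn measured 3.21 to 3.45, under the background level of 3.53. The call of Mycl at 6 months held in 9 of 21 alternative fits, and neither gene was called with liver alone. Of 11 matrix metalloproteinases and inhibitors, Mmp8 was higher in spinal cord at 3 months by 2.02, the comparison in which granulocyte genes were higher, and Mmp8 is itself on that marker list. Of 14 immediate early genes, Egr2 was higher in spinal cord at 3 months by 1.07 and Npas4 lower in midbrain at 3 months by −1.18. With spinal cord alone the call of Egr2 was lost and Atf3 was called lower instead (adjusted p = 0.0345), whereas those of Npas4 and Mmp8 held with their tissue alone. Over these lists 154 genes were measured in liver, of which 22 differed at 3 and 35 at 6 months, beside the 9.44% and 11.5% of all probe sets. With liver alone 2 were called at each age, Bid and Gadd45a at 3 months and Bid and Cdkn1a at 6 months.

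Last, the genes with the most similar pattern over the 48 arrays were looked up by Pearson's r of the values minus their group means. This gives a description over arrays that share mice, tissues and normalization. Hif1a ran closest to Abhd3 (r = 0.84), Cpeb4 (r = 0.81), which encodes an RNA-binding protein of cytoplasmic polyadenylation, and Sumo2 (r = 0.80), and r was 0.80 to 0.89 over the 36 arrays of nervous tissue. Cycs ran closest to Ndufa6 (r = 0.64), Slc35d3 (r = 0.63) and Ndufc1 (r = 0.60). Ndufa6 and Ndufc1 encode subunits of complex I of the respiratory chain, to which cytochrome c also belongs as a carrier. Elavl1 (1431037_PM_a_at) ran closest to Sugp2 (r = 0.78), Rdh13 (r = 0.69) and Papolg (r = 0.69). Myc ran with Foxq1 (r = 0.80), Gnai1 (r = 0.79) and Meg3 (r = 0.79), but r fell to 0.14, 0.26 and 0.22 over nervous tissue. For Il1b the closest were Efcab14, Tspan2 and Rgs1 (r = 0.78 to 0.79), with r between −0.08 and 0.13 over nervous tissue. These likenesses of Myc and Il1b thus lay in the liver arrays.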

How the data were processed

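RNA of 48 tissue samples was measured on Affymetrix HT MG-430 2.0 PM arrays. The values deposited by the authors are log2 expression values per probe set, made with RMA in R 2.14.0 per the labels. Arrays give no read depth, and 3 arrays per group limit the precision. All 48 columns were matched to samples by name. After 104 control probe sets were left out, 45037 were fitted together with limma 3.58.1 in R 4.3.3, with 1 mean for each of 16 groups and the spread pooled over all tissues (32 residual and 4.97 prior degrees of freedom). P-values were adjusted by Benjamini-Hochberg over all probe sets of a contrast, and 0.05 was the threshold. All adjusted p-values are from this moderated test. Of the probe sets, 28898 carry 1 gene symbol, 551 several and 15588 none in the platform annotation, which can be old. All member probe sets were reported, other genes by their brightest probe set, and named when called in nervous tissue or among the 4 largest changes; further list genes were chosen after their values were seen. The members and gene lists were chosen with earlier results of these data known. The fitting was tested on simulated data with the same spread in every tissue, which cannot show what the larger spread in liver does to the calls. Alternatives were separate fits by tissue and by tissue and age, quantile normalization within tissues, leaving out dim probe sets, a trended robust prior, the mouse as a block, nested F decisions, an adjusted p of 0.01, leaving out each mouse and, added after seeing the data, leaving out 2 livers with muscle transcripts. Replicates are separately numbered mice by the labels.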

Additional observations from a re-analysis of the deposited data

Results flagged for a closer look

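The KO effect on Myc differed between liver and the nervous tissues by 1.1954 on the log2 scale (adjusted p = 0.00025, limma), by a test of the difference itself. In this contrast 9.12% of all probe sets were called, and the test rests on the spread pooled over all tissues. In liver Myc was higher in KO mice by 0.97 at 3 months and 1.45 at 6 months, and in nervous tissue the 6 differences lay between −0.11 and 0.18. Both liver calls were lost with liver alone. Without KO mouse 122972 the difference at 3 months was 0.50 (adjusted p = 0.257, limma). No rule for single arrays that stand apart was applied to groups of 3 mice, although each mouse was left out in turn.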

How the results depend on the processing

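Counts are of the 17 member probe sets called, and the cause of each move was not tested unless the setting itself shows it. With each tissue fitted alone, KO and WT mice differed for 1 in cerebellum at 3 months (Ptgs2) instead of 0, for 0 instead of 2 in liver at 3 months and 0 instead of 3 at 6 months, and for 1 instead of 5 over the 8 comparisons, and the age change in KO mice was called for 0 instead of 1. With each tissue and age alone, 0 were called in liver at 3 months, 0 at 6 months and 0 in all. Nested F decisions left 0 and 1 in liver at 3 and 6 months and 1 in all, and an adjusted p under 0.01 left 1, 1 and 2. Without the 2 livers with muscle transcripts, 1 was called in liver at 3 months, and 2 for age in KO mice. Leaving out each mouse in turn gave 0 to 3 in liver at 3 months, 1 to 3 at 6 months, 2 to 6 over the 8 comparisons, 0 to 2 for age in WT mice, 1 to 2 for age in KO mice, 0 to 1 for the change of the KO effect with age, 1 to 3 for liver against nervous tissue, and 46 to 57 of 102 between tissues, against 54 jointly. Of the single members called, no value changed sign under an alternative. The filter on dim probe sets, quantile normalization and the trended prior left all these counts within 1.5 times. Near background were 83 of 272 pairs by the 90th percentile of the receptor probe sets and 132 by the median of all probe sets, against 97.

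KO and WT mice share no numbers, so no paired analysis of the genotypes was possible. With the mouse as a replicate block across its tissues, 5 member probe sets were called over the 8 comparisons, as without it, and the block changed no other call of a member (consensus correlation 0.0303). The median residual correlation was 0.0511 over 72 pairs of arrays of the same mouse and −0.0219 over 144 pairs of different mice. The limits are the 3 mice per group, the signal over background of Tnf, Mmp13 and Ptgs2, and the spread in liver.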
